A study of Gallus gallus with 6 samples.

Results

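The genes described here encode the nuclear lamina and the proteins that anchor it in the nuclear envelope. They were looked for by 10 names in the RNA-seq table: the lamins LMNA, LMNB1 and LMNB2, the inner membrane proteins LBR, EMD and TMPO, the SUN proteins SUN1 and SUN2, and the nesprins SYNE1 and SYNE2. An entry of the table was taken where its gene symbol or its alternate symbol equalled a name, which gave 8 entries with 7 Ensembl identifiers among 16561 entries. No entry carried the symbol EMD or SYNE1, and these genes were not analysed here. LMNA and LMNB2 led to the same 2 entries, both listed under ENSGALG00000000470 with LMNA as symbol and LMNB2 as alternate symbol. RefSeq's gene table of a later chicken assembly (GRCg7b) lists LMNA and LMNB2 as separate genes and gives LMNA as a synonym of LMNB2. Which of these lamins the 2 entries measured was therefore not settled, and they are called LMNA/LMNB2 entries 1 and 2.

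The lens grows from a single layer of epithelial cells on its anterior face, whose cells leave the cell cycle at the equator, elongate into fiber cells and later lose their nuclei and other organelles. The lamina is a meshwork of A-type and B-type lamin filaments on the inner face of the nuclear membrane. LBR and the LEM-domain proteins, among them the LAP2 proteins encoded by TMPO, hold the membrane and the chromatin to it. SUN proteins span the inner membrane and bind the KASH domains of nesprins in the outer membrane, and so couple the lamina to the cytoskeleton.

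Both groups were White Leghorn chick embryos at embryonic day 13, not treated in any way that the labels name. Lens epithelial cells (3 libraries) covered the central and equatorial epithelium, and lens fiber cells (3 libraries) covered the peripheral and central fibers. Each library was made from total RNA of cells dissected by hand and pooled over lenses, so that values average over embryos and over regions of the tissue. Values were FPKM, which relate the fragments of a transcript to the length of that transcript and the size of the library, and the floor of 0.0001 FPKM stood for no detected transcript.

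Replicates correlated across genes with Pearson's r of 0.976 to 0.982 and libraries of different cell types with 0.745 to 0.822. The labels held against lens markers, by the calls defined below. All 7 epithelial markers in the table were called lower in fiber cells, against 57.7% of all tested entries. PAX6 fell from 40.5 to 8.86 FPKM. Of 14 fiber markers 12 were called higher, against 13.1% of all tested entries, and 1 lower. MIP rose from 107 to 792 FPKM and BFSP1 from 642 to 3990 FPKM. With each library centred on its median, 6 of the 7 were lower, against 29.3% of all tested entries. On that scale 13 of the 14 were higher, against 30.2%. FOXE3 had no entry. Marker lists of other tissues were summed in FPKM. The sums were 0.0858 to 0.251 in epithelial and 8.39 to 14.2 in fiber libraries for erythrocytes (2 of 8 entries at the floor throughout). For pigment cells they were 0.39 to 3.3 and 0.174 to 0.56. Connective tissue markers summed to 6.49 to 7.72 and 6.7 to 7.64, immune markers to 4.98 to 5.82 and 2.01 to 2.67, endothelial markers to 2.71 to 3.9 and 0.536 to 1.05, muscle markers to 1.43 to 1.63 and 0.738 to 1.26, and neural retina markers to 1.98 to 2.58 and 2.2 to 3.2. These sums overlapped the range of mean levels of the entries described here, 0.0893 to 16.4 FPKM. The part of these cells in the results was not tested.

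Of the 8 entries, 7 fell in fiber cells and none rose. A gene was called where limma with a mean-variance trend, fitted to log2(FPKM + 0.1) of 10818 entries, gave a Benjamini-Hochberg adjusted p under 0.05 together with a log2 fold change beyond 0.4 in size. Over all tested entries 57.7% were called lower and 13.1% higher. The median log2 fold change was −2.10 over the 8 entries and −0.62 over all tested entries. The count of 7 and this median include both LMNA/LMNB2 entries, which share 1 identifier. At 0.185 and 0.0893 FPKM in fiber cells in the mean, they passed the filter of 0.5 FPKM only through the epithelial libraries. With a filter at a mean of 1 FPKM, which removed both, 5 entries were lower and none higher. Their median was then −1.81, against −0.58 over all entries tested. Because FPKM are relative within a library, each change was also taken relative to the median gene, after centring every library on its median. On that scale 7 of the 8 entries were again lower and SUN1 was higher, where 29.3% of all tested entries were called lower and 30.2% higher, and the median of the 8 was −1.49. The 3 fiber libraries lay below the 3 epithelial libraries for all 8 entries, as they did for 63.6% of all tested entries. For each single entry the exact permutation test, two-sided, gave p = 0.1, the smallest value that 3 libraries against 3 allow. In pools of dissected cells, a different mix of cells and less RNA of a gene per cell cannot be told apart.

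**Figure D1:**
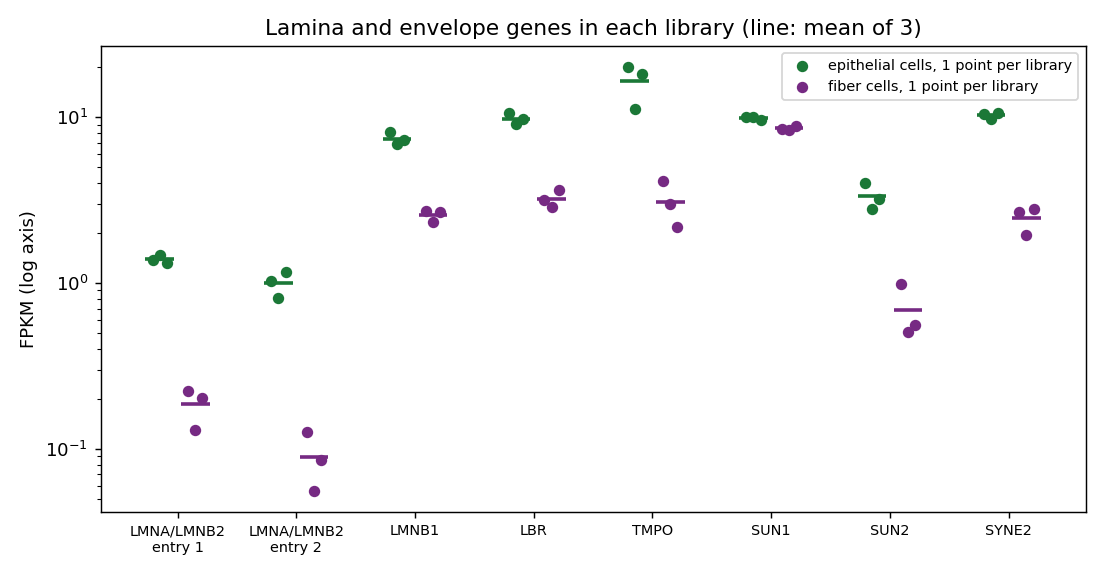
FPKM (log axis) of the 8 entries in the 3 epithelial (green) and 3 fiber (purple) libraries, 1 point per library with a line at the mean. Fiber libraries lay below epithelial libraries for every entry, by 1.15 times in the mean for SUN1 and by 2.88 to 11.2 times for the others.

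The lamins were lower in fiber cells. LMNB1 (ENSGALG00000014692) encodes lamin B1, a B-type lamin that stays farnesylated and bound to the membrane. It stood at 8.13, 6.86 and 7.23 FPKM in epithelial replicates 1, 2 and 3 and at 2.71, 2.33 and 2.67 FPKM in fiber replicates 1, 2 and 3. The lowest epithelial library was thus well above the highest fiber library, and the spread within each cell type was small. LMNB1 averaged 7.41 ± 0.654 FPKM (SD, n = 3) in epithelial and 2.57 ± 0.206 FPKM (SD, n = 3) in fiber cells. The log2 fold change was −1.49 (SE 0.11, limma adjusted p = 1.48e-05), or −0.88 relative to the median gene.

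The LMNA/LMNB2 entries were the lowest of the 8 in both cell types. Entry 1 stood at 1.38, 1.48 and 1.32 FPKM in epithelial replicates 1, 2 and 3 and at 0.224, 0.129 and 0.203 FPKM in the fiber replicates. Entry 2 stood at 1.03, 0.814 and 1.16 FPKM in the epithelial and at 0.127, 0.0559 and 0.0855 FPKM in the fiber replicates. Every fiber value was far below the lowest epithelial value. The log2 fold changes were −2.40 (SE 0.22, limma adjusted p = 3.3e-05) for entry 1 and −2.54 (SE 0.27, limma adjusted p = 6.43e-05) for entry 2, or −1.79 and −1.94 relative to the median gene. With the 0.1 FPKM added, these values understate the ratio of mean FPKM, which was 7.52 and 11.2 times in favour of epithelial cells. Both entries passed the filter of 0.5 FPKM in the mean only through the epithelial libraries, so a difference in that direction was built into their selection. They share 1 identifier, and counted as 1 gene the tally was 6 of 7 genes lower in fiber cells.

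Both inner membrane proteins with an entry fell. LBR (ENSGALG00000009305), the lamin B receptor, tethers heterochromatin to the envelope and also carries a sterol reductase domain. It stood at 10.5, 9.01 and 9.75 FPKM in epithelial replicates 1, 2 and 3 and at 3.14, 2.85 and 3.62 FPKM in the fiber replicates. The groups were far apart, with an average of 9.76 ± 0.756 FPKM (SD, n = 3) in epithelial and 3.20 ± 0.392 FPKM (SD, n = 3) in fiber cells, and its change on the log2 scale was −1.58 (SE 0.12, limma adjusted p = 1.39e-05), or −0.97 relative to the median gene.

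TMPO (ENSGALG00000011504), the LAP2 gene, was the entry with the highest level in epithelial cells. It stood at 20.0, 11.1 and 18.2 FPKM in epithelial replicates 1, 2 and 3 and at 4.09, 2.99 and 2.18 FPKM in the fiber replicates. Epithelial replicate 2 was well below the other two and still above every fiber library. The averages were 16.4 ± 4.67 and 3.09 ± 0.961 FPKM (SD, n = 3 each), the widest SD in FPKM among the 8 entries in both cell types. The log2 fold change was −2.38 (SE 0.27, limma adjusted p = 9.69e-05), or −1.77 relative to the median gene, and lay between −2.63 and −2.16 with 1 library left out in turn.

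The SUN proteins, paralogs with the same place in the inner membrane, differed in their change. SUN2 (ENSGALG00000028230) stood at 3.99, 2.79 and 3.21 FPKM in epithelial replicates 1, 2 and 3 and at 0.986, 0.505 and 0.559 FPKM in the fiber replicates. Its libraries were separated by cell type, with averages of 3.33 ± 0.610 and 0.683 ± 0.264 FPKM (SD, n = 3 each). Its log2 fold change was −2.16 (SE 0.25, limma adjusted p = 0.000102), or −1.56 relative to the median gene. A further entry without a symbol (ENSGALG00000034504) held the same 6 values, so that SUN2 cannot be told apart from that gene model.

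SUN1 (ENSGALG00000003781) stood at 10.04, 9.96 and 9.56 FPKM in epithelial replicates 1, 2 and 3 and at 8.49, 8.39 and 8.81 FPKM in the fiber replicates. The groups did not overlap but lay close together, at 9.86 ± 0.258 and 8.57 ± 0.218 FPKM (SD, n = 3 each). The log2 fold change of −0.20 (95% interval −0.39 to −0.01, limma adjusted p = 0.0496) was short of the threshold of 0.4. Relative to the median gene it was 0.41 (95% interval 0.23 to 0.58, limma adjusted p = 0.00206), just past the threshold in the other direction. Of the tested entries, 68.3% had a lower log2 fold change than SUN1, against 4.62% to 17.4% for the other 7 entries. GET4 (ENSGALG00000003798), a protein of tail-anchored membrane protein insertion that lies next to SUN1 in the RefSeq gene table, held the same 6 values. The SUN1 value may thus belong to either gene or to both.

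SYNE2 (ENSGALG00000011811) encodes nesprin-2, a giant outer membrane protein that binds actin and, in other vertebrates, moves nuclei along microtubules. It stood at 10.5, 9.77 and 10.6 FPKM in epithelial replicates 1, 2 and 3 and at 2.67, 1.93 and 2.79 FPKM in the fiber replicates. The cell types were widely separated and each was tight. The log2 fold change was −2.03 (SE 0.15, limma adjusted p = 1.11e-05), or −1.42 relative to the median gene. SYNE3 (nesprin-3), which links the envelope to intermediate filaments through plectin, varied widely in epithelial cells, with 2.42, 0.495 and 1.32 FPKM against 0.642, 0.553 and 0.913 FPKM in fiber cells. Its log2 fold change of −0.70 (SE 0.48, limma adjusted p = 0.207) did not pass the test, but it did without epithelial replicate 2 (−1.26).

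**Figure D2:**
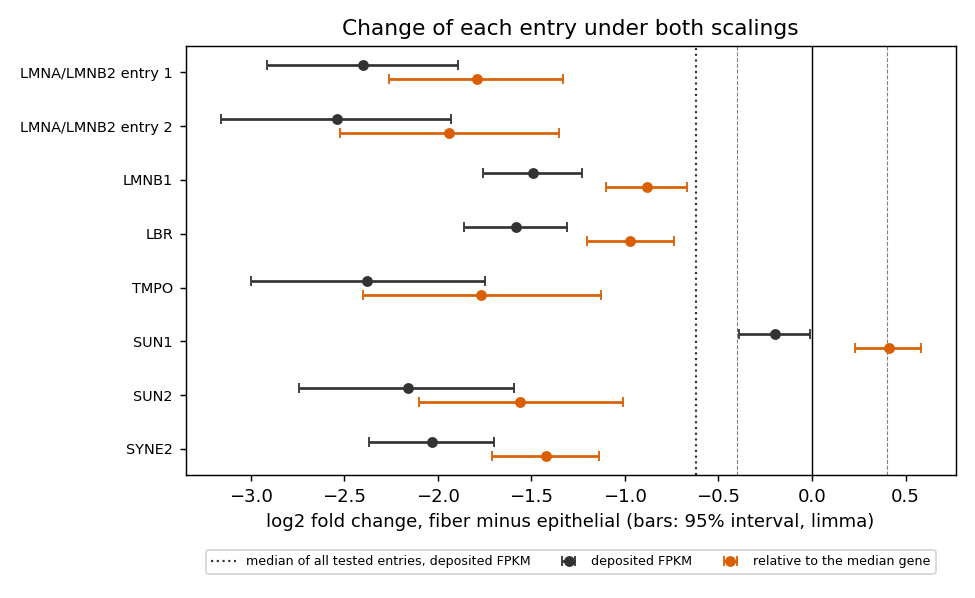
Log2 fold change of the 8 entries, fiber minus epithelial, with limma's 95% interval, from deposited FPKM (black) and relative to the median gene (orange). Dashed lines mark 0.4 in either direction and the dotted line the median of all tested entries at −0.62. SUN1 is the entry that changed sides, from −0.20 to 0.41.

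The order of the levels differed between the cell types. In epithelial cells the order of mean FPKM was TMPO (16.4), SYNE2 (10.3), SUN1 (9.86), LBR (9.76), LMNB1 (7.41), SUN2 (3.33) and LMNA/LMNB2 entries 1 (1.39) and 2 (1.002). The ranges of SYNE2, SUN1 and LBR overlapped, and the other neighbours were separated in all 3 libraries. In fiber cells SUN1 (8.57) was first, above LBR (3.20), TMPO (3.09), LMNB1 (2.57) and SYNE2 (2.46), which overlapped from each to the next. SUN2 (0.683) and LMNA/LMNB2 entries 1 (0.185) and 2 (0.0893) followed, each separated from its neighbour. The summed FPKM of the 8 entries was 59.5 ± 6.99 in epithelial and 20.8 ± 1.62 in fiber cells (SD, n = 3 each).

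Shares of this sum, which are independent of the scaling between libraries, showed how unequal the changes were. SUN1 made up 15.3% to 19.2% of the sum in epithelial and 37.85% to 43.7% in fiber libraries. As GET4 holds the same values, this share may belong to either gene or to both. TMPO made up 21.5% to 30.5% and 10.4% to 18.2%, and SYNE2 15.98% to 18.85% and 10.1% to 13.3%. LMNB1 held 12.5% ± 0.698 and 12.3% ± 0.367 (SD, n = 3 each), and its shares overlapped between the cell types. Those of LBR, 15.98% to 17.4% and 14.0% to 17.3%, overlapped too.

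**Figure D3:**
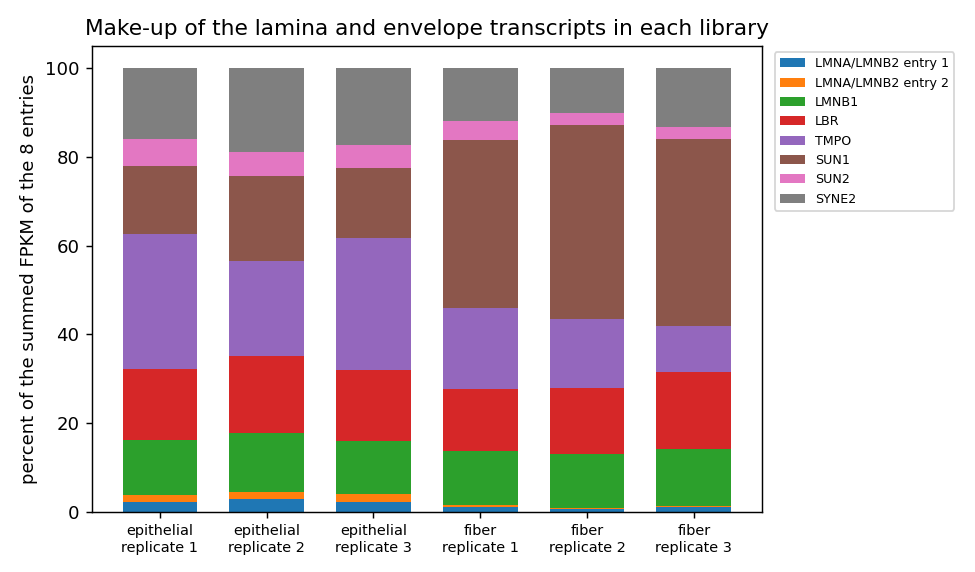
Share of each of the 8 entries in their summed FPKM, in percent, in each of the 6 libraries. SUN1 widens from at most 19.2% in epithelial to at least 37.85% in fiber libraries, while LMNB1 stays between 11.86% and 13.24%. SUN1 shares its values with GET4.

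Ratios of 2 genes within a library do not depend on the scaling either. The ratio of SUN1 to SUN2 was 2.52, 3.58 and 2.98 in epithelial replicates 1, 2 and 3 and 8.61, 16.6 and 15.8 in the fiber replicates, a difference of 2.13 on the log2 scale. Each of these genes shares its values with another entry, so the ratio may not be that of the SUN genes alone. The ratio of LMNA/LMNB2 entry 1 to LMNB1 was 0.170, 0.215 and 0.183 in epithelial and 0.0826, 0.0553 and 0.0759 in fiber replicates, a difference of −1.42. That of the same entry to LBR fell by 1.34 on the log2 scale. None of these 3 ratios overlapped between the cell types. Each had an exact permutation p = 0.1, two-sided, and the same value after Benjamini-Hochberg adjustment, so the threshold was out of reach for this design. With 1 FPKM added to both levels the 2 lamin ratios turned to 0.22 and 0.34, so their direction rests on values under 1 FPKM. LMNA/LMNB2 entry 1 passed the filter only through the epithelial libraries, so a fall of these 2 ratios was favoured by its selection. For SYNE1 to SYNE2, and for LMNA against LMNB2, no ratio could be formed.

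The rest of the pathway was read from lists of envelope genes, whose counts stand beside 57.7% lower and 13.1% higher over all tested entries, or 29.3% and 30.2% relative to the median gene. Of 14 tested genes of other envelope membrane proteins and partners, 10 were lower and none was higher, with a median log2 fold change of −0.80 against −0.62 over all tested entries. Relative to the median gene 5 were lower and 1 higher. NEMP1 was 1 of the 10, at 0.703 FPKM in epithelial and 0.311 FPKM in fiber cells in the mean. It passed the filter only through the epithelial libraries, so its fall was built into its selection. CBX5 (heterochromatin protein 1 alpha, a partner of LBR) fell from 6.42 ± 1.13 to 1.16 ± 0.298 FPKM (SD, n = 3 each), a change of −2.38 on the log2 scale (SE 0.20, limma adjusted p = 2.07e-05), and CBX1 had −2.05. NEMP2, an inner membrane protein of the NEMP family, had −2.05 as well. Of the LEM-domain protein genes, LEMD2 fell from 5.96 ± 0.542 to 2.12 ± 0.489 FPKM (SD, n = 3 each; log2 fold change −1.47, limma adjusted p = 0.000121). ANKLE2 was lower by −0.76 (limma adjusted p = 0.000515) and not called relative to the median gene. LEMD3 stood at 2.71 ± 0.625 and 2.96 ± 0.641 FPKM and did not pass the test (0.12, limma adjusted p = 0.627). It was higher relative to the median gene (0.73, limma adjusted p = 0.0286). LEMD3 and ANKLE2 each share their values with another entry, and the difference in change between the LEM-domain protein genes was not tested. BANF1, the chromatin-binding partner of LEM domains, overlapped between the cell types at 34.9 ± 4.14 and 35.6 ± 12.1 FPKM (SD, n = 3 each).

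Of the lamin processing genes, 3 of 5 had an entry. ZMPSTE24, the protease that matures prelamin A, stood at 15.3 ± 1.44 and 15.9 ± 0.180 FPKM (SD, n = 3 each) and did not pass the test (log2 fold change 0.06, limma adjusted p = 0.574). It was higher relative to the median gene (0.67). FNTA, a farnesyltransferase subunit, and ICMT, the carboxyl methyltransferase, were lower by −0.44 and −0.51, neither of which held relative to the median gene. FNTA was no longer called without fiber replicate 1 (−0.39). TOR1A, the torsin ATPase of the envelope lumen, was lower by −0.44 and likewise not called relative to the median gene.

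Of 7 tested genes of other SUN and KASH proteins and cytoskeletal partners, 3 were lower, against 57.7% of all tested entries: BICD2, a dynein adaptor (−1.24), FHOD1, a formin that binds nesprin-2 (−0.87), and the kinesin heavy chain KIF5B (−0.49). BICD2 alone of these was lower relative to the median gene. FHOD1, at 0.676 FPKM in epithelial and 0.329 FPKM in fiber cells in the mean, passed the filter only through the epithelial libraries. None was higher, and relative to the median gene DYNC1H1 of the dynein motor and DCTN1 of its partner complex dynactin were (0.49 and 0.58). DCTN1 shares its values with another entry.

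Among 16 tested genes of envelope disassembly and re-formation, 7 were lower and 1 higher, against 57.7% and 13.1% of all tested entries, and 5 and 6 relative to the median gene, against 29.3% and 30.2%. The mitotic kinases PLK1, NEK2 and CDK1 fell most. CDK1, which phosphorylates lamins, stood at 6.70, 5.41 and 6.31 FPKM in epithelial replicates 1, 2 and 3 and at 0.610, 0.404 and 0.449 FPKM in the fiber replicates. Its log2 fold change was −3.42 (SE 0.17, limma adjusted p = 2.98e-06), and PLK1 and NEK2 had −4.35 (SE 0.40) and −3.97 (SE 0.48). In fiber replicate 2 NEK2 was at the floor of 0.0001 FPKM and PLK1 at 0.0302 FPKM, both under the 0.1 FPKM added. With mean fiber levels of 0.488 (CDK1), 0.178 (PLK1) and 0.128 FPKM (NEK2), all under 0.5 FPKM, these kinases passed the filter only through the epithelial libraries, so a fall was built into their selection. The kinase VRK1 averaged 1.34 FPKM in epithelial and 1.24 FPKM in fiber cells and did not pass the test (−0.10, limma adjusted p = 0.618). Relative to the median gene VRK1 was higher (0.51, limma adjusted p = 0.0446). Of the ESCRT-III genes, which seal the envelope, CHMP2A was higher (0.53, limma adjusted p = 0.00192, with values shared with another entry). CHMP7 (0.13), CHMP4B (0.08), IST1 (−0.18) and CHMP2B (−0.78) did not pass the test. Relative to the median gene CHMP7 (0.74) and CHMP4B (0.69) were called higher, and IST1 and CHMP2B were not called.

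Genes of proliferation were also lower in fiber cells. All 11 of the tested list were called lower under both scalings, against 57.7% of all tested entries, or 29.3% relative to the median gene. The median log2 fold change of the list was −3.20. MCM3 (−4.30), MCM5 (−4.05) and BUB1 (−3.69) were among them, and MKI67 had no entry. MCM3, MCM5 and BUB1, at 0.111, 0.205 and 0.212 FPKM in fiber cells in the mean, likewise passed the filter only through the epithelial libraries, as did CDK1, which is also in this list. The count and the median of the list include these genes, whose fall was built into their selection. The summed FPKM of the list was 90.7 to 108 in epithelial and 25.9 to 28.5 in fiber libraries. The part of cell cycle exit in the change of the lamina genes was not tested.

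The list of genes tied to the loss of fiber nuclei, most of them from work in mice and other mammals, moved in both directions. Of 14 tested genes, 7 were lower and 5 higher, against 57.7% and 13.1% of all tested entries, and 1 and 6 relative to the median gene, against 29.3% and 30.2%. CASP6, which passed the filter only through the epithelial libraries, is 1 of the 7 and the only gene lower relative to the median gene. Of these calls, that of GATA3 was lost with 4 of the 6 libraries left out in turn (log2 fold change −0.44) and that of PITX3 without fiber replicate 2 (0.29). HSF4, the heat shock factor of the lens, stood at 0.843, 1.32 and 1.73 FPKM in epithelial replicates 1, 2 and 3 and at 39.7, 50.9 and 45.5 FPKM in the fiber replicates, with a log2 fold change of 5.07 (SE 0.23, limma adjusted p = 1.76e-06). The mitophagy receptor BNIP3 rose by 1.49 on the log2 scale, and FYCO1, an adaptor that moves autophagosomes along microtubules, by 0.86.

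Other genes of this list fell. CASP6, the caspase known for cutting A-type lamins, stood at 2.54, 2.64 and 2.24 FPKM in epithelial replicates 1, 2 and 3 and at 0.597, 0.0001 and 0.253 FPKM in the fiber replicates, the middle value being the floor. Its log2 fold change of −3.14 (SE 0.61, limma adjusted p = 0.00172) was −2.37 without fiber replicate 2 and −3.77 without fiber replicate 1, and was called in both. CASP6, with a mean of 0.283 FPKM in fiber cells, passed the filter only through the epithelial libraries. SMARCA5, a chromatin remodeler, was lower by −0.99. DNASE2B, the lysosomal DNase that degrades fiber DNA in the mouse, was low in both cell types, at 1.08, 1.25 and 1.32 FPKM in epithelial and 0.539, 0.444 and 0.858 FPKM in fiber replicates. Its log2 fold change of −0.92 (SE 0.24, limma adjusted p = 0.00825) was −0.31 relative to the median gene and not called on that scale. CDKN1B, the inhibitor p27, was lower by −0.76 and by −0.15 relative to the median gene, where it was not called either.

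**Figure D4:**
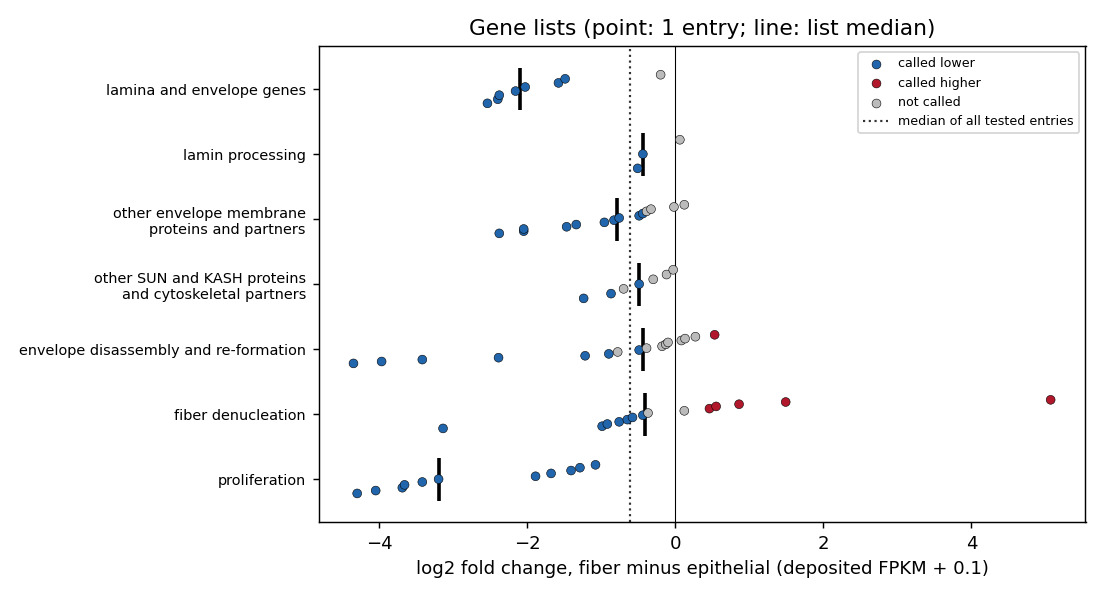
Log2 fold change, fiber minus epithelial, of the tested entries of 7 gene lists, 1 point per entry, colored by call, with a black line at the list median and a dotted line at −0.62, the median of all tested entries. The lamina and envelope entries (median −2.10) and the proliferation genes (median −3.20) lie to the left, and HSF4 (5.07) stands apart at the right. Both medians include entries that passed the filter only through the epithelial libraries.

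The profile of the 8 entries over the 6 libraries was shared widely. Against their mean z-scored profile, 1643 tested entries had a Pearson's r above 0.99, as any gene with a clear fall between the cell types must come close to it. The 5 entries with the highest r were ITPKA, PDIA6, HS6ST1, cNFI-A and STYK1, with log2 fold changes from −2.74 (STYK1) to −1.74 (PDIA6).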

How the data were processed

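RNA-seq values of 6 libraries, 3 per lens cell type and each pooled over lenses, were taken from the authors' table. Per the authors, stranded total RNA libraries were sequenced paired-end, Cutadapt trimming was followed by mapping to galGal6 (Ensembl annotation) with HISAT2 and Bowtie2, transcripts were assembled with StringTie and gffcompare, and expression levels were estimated with edgeR. The deposited values are FPKM with 0.0001 in place of 0. The authors' own averages, fold changes, p-values and q-values are in the same table and were not used. FPKM hold no read counts. Among low values of replicate pairs no ratio recurred in more than 1.34% of entries, so no step of single fragments was recovered, the depth is unknown, and precision was taken from replicates alone. Counts of whole reads not being at hand, the edgeR test named by the study was not repeated.

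Entries averaging 0.5 FPKM or more were tested with limma 3.58.1 (R 4.3.3, mean-variance trend) on log2(FPKM + 0.1), with Benjamini-Hochberg adjustment over 10818 entries, and again after centring each library on its median. Calls used the study's thresholds, 0.05 for the adjusted p and 0.4 for the size of the log2 fold change. Exact permutation tests (scipy 1.17.1) covered the 10 two-sided splits. Lists are described by counts and medians, with no set test. The fit was tested on simulated data. The members and lists were chosen with earlier results of these data known. Some genes of the list tied to the loss of fiber nuclei are not reported here and are left out of its counts. Named genes are all members, up to 3 called genes of each list in each direction with libraries that do not overlap, a fixed set (DNASE2B, HSF4, CDKN1B, CDK1, BANF1, LEMD2, LEMD3, ZMPSTE24, TOR1A, MKI67, label markers) and the 5 entries most like the members. SYNE3, ANKLE2, VRK1, CHMP7, CHMP4B, CHMP2B, IST1, DYNC1H1, DCTN1 and genes whose call turned on 1 library were named after their values were seen. No batch is given in the labels. Alternatives changed the pseudocount, filter, scaling, moderation, test, pairing and libraries.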

Additional observations from a re-analysis of the deposited data

How the results depend on the processing

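Between 5 and 7 entries were called lower under every alternative, with the deposited FPKM and relative to the median gene. The 5 came from the filter at a mean of 1 FPKM, which removed both LMNA/LMNB2 entries and gave a median log2 fold change of −1.81. LMNB1, LBR, TMPO, SUN2 and SYNE2 kept their direction and their call under all 20 alternatives. SUN1 changed direction with the scaling: its log2 fold change was 0.41 with median centring and with the replicate block and median centring, 0.10 with division by the 75th percentile, 0.07 with quantile normalization and 0.02 without delta-crystallin, of which the first 2 were calls, so that 1 entry was higher there in place of 0. The median log2 fold change of the 8 entries was −1.49 with median centring, alone or with the block, −1.24 with quantile normalization and −1.30 with 1 FPKM added.

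The ratio of LMNA/LMNB2 entry 1 to LMNB1 changed by −0.91 with 0.1 FPKM added and by 0.22 with 1 FPKM added, and that to LBR by −0.82 and 0.34. The ratio of SUN1 to SUN2 changed by 1.18 with 1 FPKM added. The added value pulls levels under 1 FPKM together. With 1 library left out the differences of the 3 ratios lay between −1.54 and −1.25, between −1.51 and −1.18, and between 1.96 and 2.43.

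Among the other envelope genes, the call of SPAST was lost without epithelial replicate 2 (−0.38), and calls were gained by HDAC3 (−0.66) and PPP2CA without epithelial replicate 2, by PAFAH1B1 (−0.41), PIK3C3 (−0.42) and PPP2CA without fiber replicate 3. PPP2CA shares its values with another entry.

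Libraries of the 2 cell types share replicate numbers that the labels do not tie to shared lenses. Per the authors, the lenses of each biological replicate were dissected into both cell types, so same-numbered libraries may come from the same lenses. The main fit and the exact permutation tests treated the libraries as unpaired. Deviations of same-numbered libraries correlated by 0.0858, 0.0659 and 0.0666, under 0.1, although each library correlated best with its own number. With the replicate block, 7 entries were lower and 0 higher, as without it, and over all entries 6268 were lower and 1436 higher against 6240 and 1415. Depth is unknown and sets no stated limit here. Over all tested entries 3167 were lower and 3263 higher with median centring. Values under 1 FPKM, as in the LMNA/LMNB2 entries, were those most open to the added constant.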
